A study of Mus musculus with 16 samples.

Results

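Genes commonly used to mark monocytes and macrophages were followed in RNA from sorted cells of the mouse olfactory mucosa. The list has 10 genes: Ly6c1, Ly6c2, Fn1, Chil3, Lyz2, C1qa, Csf1r, Cd68, Tyrobp and Fcer1g. They were chosen by gene symbol, with the probe set of highest mean taken for each gene, and 9 of the 10 were measured among 19505 genes. Cd68 has no entry in the table of probe set names used here and was not analysed here.

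All mice carried the S100a5-tauGFP reporter, in which a fluorescent tau fusion protein follows S100a5, a calcium-binding protein gene of olfactory sensory neurons whose expression rises with odor-driven activity. The 24 mice, of both sexes and 7 to 12 weeks old, were each kept alone for 40 h in a chamber flushed with clean air at 3.1 L/min. From 26 h onward they received 10 s of octanol vapour or of filtered air (vehicle) every 20 min, and the mucosa was then dissected, dissociated and sorted by fluorescence into GFP+ and GFP- cells. The cells of 3 mice were pooled for each array, which gave 4 groups of 4 Clariom S arrays: vehicle GFP-, vehicle GFP+, octanol GFP- and octanol GFP+. The reporter marks neurons only by their S100a5 level, so the GFP- fraction holds every other cell of the mucosa, neurons without the reporter signal included, and whether the tissue was cleared of blood is not given in the sources used here.

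Monocytes are made in bone marrow, circulate in blood and enter tissues, where they can become macrophages. Classical mouse monocytes carry much Ly6C on their surface and the chemokine receptor CCR2, whereas nonclassical monocytes patrol vessels and carry CX3CR1. Tissue macrophages depend on signals through the CSF1 receptor, clear dying cells and debris, and make the complement component C1q. In the olfactory mucosa, where neurons die and are replaced throughout life, macrophages are known for clearing dying neurons. Several of the 9 genes are not restricted to these cells: Lyz2, Tyrobp, Fcer1g and Chil3 are also used by neutrophils and their precursors, Ly6c1 by endothelial cells and T cells, and Fn1 by fibroblasts.

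The values are log2 hybridization signals, so a difference of 1 is a doubling. Array medians ran from 7.42 to 7.70. The background level of 6.32 is the signal that 95% of 321 vomeronasal receptor genes do not exceed on average, since most of these receptors are not used in this tissue, and a signal under it is treated as not measured above background. Where any array of the lower group lay under that level, values under it were raised to it and the fold is given as a lower bound. Log2 differences are given from the values as deposited, also where some arrays lay under that level. The olfactory neuron markers Omp and Gnal were at 18.11 ± 0.05 and 17.72 ± 0.08 (SD, n = 4) in vehicle GFP- cells and at 18.18 ± 0.02 and 17.88 ± 0.07 in vehicle GFP+ cells, so neuronal RNA was abundant in both fractions. S100a5 itself was 0.82 higher in GFP+ than in GFP- cells after vehicle (adjusted p = 6.38e-04), as the sort requires.

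Octanol GFP+ pools 3 and 4 stood apart from pools 1 and 2 for these genes: all 9 measured genes were higher in both of the former than in both of the latter, as were 20.8% of all genes. The summed signal of 11 neutrophil markers, on the log2 scale, was 11.48, 11.54, 13.14 and 14.26 in octanol GFP+ pools 1 to 4. In the vehicle GFP+ pools it was 10.59 to 11.67. The sum of 11 other classical monocyte genes in octanol GFP+ pools 1 to 4 was 10.56, 10.67, 10.63 and 10.78. That of 14 tissue macrophage genes was 11.29, 11.37, 11.76 and 11.63, and that of 7 other complement genes 9.81, 10.17, 10.40 and 10.61. The 4 fibroblast markers summed to 9.49, 9.12, 10.26 and 9.42. The part of neutrophil RNA in the values of the 9 genes was not tested. Results that rest on pools 3 and 4 are therefore also given without them.

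Listed genes with no promoter entry, or on a chromosome that was left out, were passed over. The promoters of the other 6 of 10 were taken from RefSeq (assembly GRCm38.p6), as the 250 bases before the most upstream start. Those of the 5 measured genes among them are shown, since all 5 differed between the fractions in the same direction and the Ly6c pair are close relatives. Capitals mark AGGAAGT or, on the other strand, ACTTCCT, a form of the site bound by the ETS factor PU.1, which drives myeloid gene expression. These letters were chosen after several forms of the site had been searched. All 5 genes lie on the minus strand, and each sequence reads 5′ to 3′ toward the gene: Ly6c1 at chr15:75048838-75049087, Ly6c2 at chr15:75111972-75112221, Chil3 at chr3:106167565-106167814, Lyz2 at chr10:117282273-117282522 and Fcer1g at chr1:171234350-171234599.
Ly6c1: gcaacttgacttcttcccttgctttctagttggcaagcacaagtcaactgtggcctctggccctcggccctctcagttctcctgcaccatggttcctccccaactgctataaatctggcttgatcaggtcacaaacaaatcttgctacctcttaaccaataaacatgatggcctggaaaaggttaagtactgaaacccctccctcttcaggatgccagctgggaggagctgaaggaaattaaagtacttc
Ly6c2: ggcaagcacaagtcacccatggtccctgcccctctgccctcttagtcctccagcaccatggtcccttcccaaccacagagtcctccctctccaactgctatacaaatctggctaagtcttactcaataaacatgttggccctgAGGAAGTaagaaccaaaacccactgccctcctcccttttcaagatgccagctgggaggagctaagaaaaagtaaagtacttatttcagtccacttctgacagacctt
Chil3: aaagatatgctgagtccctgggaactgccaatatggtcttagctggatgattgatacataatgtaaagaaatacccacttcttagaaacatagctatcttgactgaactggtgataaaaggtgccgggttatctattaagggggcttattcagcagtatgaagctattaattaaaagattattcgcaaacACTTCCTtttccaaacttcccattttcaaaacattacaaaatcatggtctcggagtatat
Lyz2: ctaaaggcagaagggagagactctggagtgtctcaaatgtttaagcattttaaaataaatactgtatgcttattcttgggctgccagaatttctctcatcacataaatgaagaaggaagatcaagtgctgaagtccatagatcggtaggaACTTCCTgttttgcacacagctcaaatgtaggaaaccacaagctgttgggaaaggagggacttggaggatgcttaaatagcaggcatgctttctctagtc
Fcer1g: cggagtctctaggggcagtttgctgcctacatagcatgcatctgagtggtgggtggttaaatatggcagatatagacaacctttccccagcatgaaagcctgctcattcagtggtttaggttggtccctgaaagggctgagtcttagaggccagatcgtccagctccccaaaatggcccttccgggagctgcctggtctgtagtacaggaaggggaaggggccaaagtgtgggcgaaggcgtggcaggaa

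The letters occurred in 3 of the 6 windows: in Ly6c2, 107 bases before the start, in Chil3, 60 bases before it, and in Lyz2, 100 bases before it. Among all 32851 windows of the same length in the table, with no rule by chromosome applied, 2525 (7.69%) held them on either strand. The letters were chosen after several forms had been searched, so setting 3 of 6 beside this share is not a test. The windows of Ly6c1, Cd68 and Fcer1g did not hold these letters. Ly6c1 and Ly6c2 are neighbours on chromosome 15 with 2 genes between them, neither protein coding, and their aligned promoter windows shared 164 of 284 columns (57.7%). The Ly6c coding sequences are near copies of each other, so the array may read RNA of either gene with the probes of the other, and the Ly6c1 and Ly6c2 values are not independent.

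All 9 measured genes were lower in GFP+ than in GFP- cells, after vehicle and after octanol alike, and in each of the 8 pools. After vehicle the differences ran from -1.24 for C1qa to -8.68 for Ly6c2, with a median of -6.15 against 0.13 over all genes. After octanol they ran from -1.26 to -7.57, with a median of -5.92 against 0.14. Each passed the threshold of 0.05 in limma's moderated test after Benjamini-Hochberg adjustment over all 19505 genes, where 13.5% of all genes were called lower after vehicle and 13.2% after octanol. The values of the GFP+ and GFP- groups did not overlap for any of the 9 genes in either exposure, as for 13.2% and 12.4% of all genes in that direction. RNA of whole fractions was measured, so fewer cells of a type and less RNA per cell cannot be told apart.

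The array scale bears on small differences and on how many genes are called in each direction. The all-gene median of GFP+ minus GFP- after vehicle was 0.13 as deposited and 0.15 once arrays were quantile normalized. It was 0.46 when arrays were centred on their medians and -0.17 when they were centred on their odorant receptor genes, and after octanol the 4 medians were 0.14, 0.14, 0.41 and -0.36. The share of called genes that were higher in GFP+ cells moved with it, at 52.2%, 65.0%, 86.5% and 12.6% after vehicle and 55.9%, 63.4%, 84.9% and 5.78% after octanol. The 9 genes were called lower under all 4 scalings in both exposures.

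**Figure D1:**
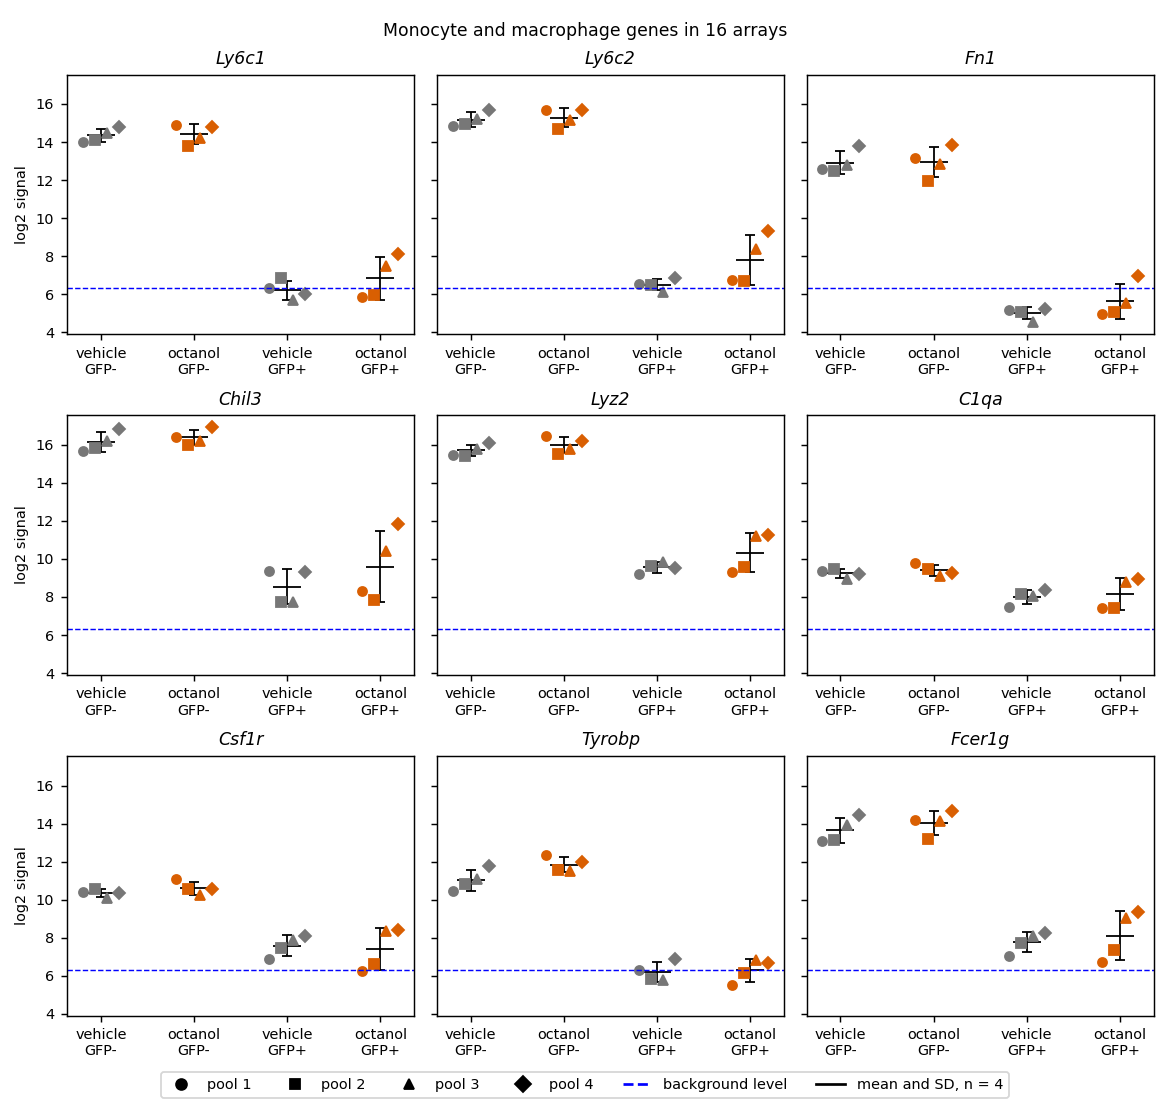
Log2 signal (vertical axis) of the 9 measured genes in the 4 groups, with 1 point per array, marked by pool, the mean and SD of each group (n = 4) and the background level of 6.32 as a dashed line. Grey points are vehicle and orange points octanol. GFP- points lie above GFP+ points in every panel, by least for C1qa, and octanol GFP+ pools 3 and 4 lie above pools 1 and 2 in all 9 panels.

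Ly6c1 and Ly6c2 encode small lipid-anchored surface proteins, the Ly6C antigens by which mouse monocytes are sorted. In pools 1 to 4 of vehicle GFP- cells, Ly6c1 was at 14.00, 14.13, 14.49 and 14.77 and in GFP+ cells of the same pools at 6.30, 6.84, 5.68 and 5.99. The groups were far apart, and 1 of 4 GFP+ arrays was above background. The Ly6c1 signal of GFP+ cells was thus at least 239-fold lower (-8.15, SE 0.39, adjusted p = 3.08e-07). After octanol, GFP- cells were at 14.90, 13.79, 14.19 and 14.78 and GFP+ cells at 5.83, 5.97, 7.46 and 8.10, with pools 3 and 4 the only GFP+ arrays above background. Ly6c1 was then at least 165-fold lower (-7.57, SE 0.39, adjusted p = 4.7e-07), and its difference without octanol pools 3 and 4 was -8.44.

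Ly6c2 followed the same pattern. It was at 14.85, 14.95, 15.22 and 15.69 in vehicle GFP- cells and at 6.52, 6.51, 6.12 and 6.85 in vehicle GFP+ cells, 3 of these 4 arrays exceeding the background level. The GFP+ fraction was thus at least 396-fold lower (-8.68, SE 0.35, adjusted p = 1.26e-07). After octanol the GFP- arrays read 15.66, 14.67, 15.15 and 15.66 and the GFP+ arrays 6.77, 6.69, 8.40 and 9.34, the last 2 being above every vehicle GFP+ array. The difference was -7.49 (SE 0.35, adjusted p = 2.9e-07), or -8.44 without octanol pools 3 and 4.

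The secreted proteins of the list have different roles. Fn1 encodes fibronectin, a matrix and plasma glycoprotein that classical monocytes also make. Its signal was 12.58, 12.46, 12.81 and 13.78 in vehicle GFP- pools and 5.16, 5.05, 4.53 and 5.22 in vehicle GFP+ pools, none of which was above background. For Fn1 the GFP+ fraction was at least 96.4-fold lower (-7.92, SE 0.25, adjusted p = 5.73e-08). After octanol it was at 13.14, 11.95, 12.83 and 13.86 in GFP- cells and at 4.97, 5.04, 5.56 and 6.94 in GFP+ cells, where pool 4 was the 1 array above background. That difference was -7.31 (SE 0.25, adjusted p = 6.91e-08), at least 88.6-fold, and -7.54 without octanol pools 3 and 4. Of 4 measured fibroblast markers, Dcn was called lower after vehicle (-0.81, adjusted p = 0.0462) and 0 were after octanol, where Dcn differed by -0.64 (adjusted p = 0.097). With arrays centred on their odorant receptor genes Dcn was called lower in both (-1.11 and -1.14), and with quantile normalization or median centring in neither. The part of fibroblast RNA in the Fn1 values was not tested.

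Chil3 encodes Ym1, a chitinase-like protein of monocytes, alternatively activated macrophages and neutrophil precursors. It was at 15.67, 15.82, 16.22 and 16.85 in vehicle GFP- cells and at 9.36, 7.75, 7.74 and 9.33 in vehicle GFP+ cells, all above background. The GFP+ arrays of pools 1 and 4 exceeded the other two, and the groups did not overlap. Chil3 was 194-fold lower in GFP+ cells (-7.60, SE 0.51, adjusted p = 2.89e-06). After octanol it was at 16.43, 15.97, 16.20 and 16.93 in GFP- cells and at 8.32, 7.84, 10.40 and 11.81 in GFP+ cells, the widest spread of the 9 genes within a group (SD 1.85). It was 111-fold lower (-6.79, SE 0.51, adjusted p = 5.88e-06), and -8.12 without octanol pools 3 and 4.

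Lyz2 encodes the lysozyme of phagocytes, which digests bacterial cell walls. Its vehicle GFP- arrays read 15.49, 15.43, 15.80 and 16.09 and its vehicle GFP+ arrays 9.19, 9.64, 9.86 and 9.53. Each group was tight, with SDs of 0.30 and 0.28, and the GFP+ signal stayed above background in all 4 pools. Lyz2 was 70.9-fold lower in GFP+ cells (-6.15, SE 0.34, adjusted p = 7.45e-07). After octanol it was at 16.46, 15.51, 15.79 and 16.21 in GFP- cells and at 9.32, 9.56, 11.19 and 11.25 in GFP+ cells, 50.7-fold lower (-5.66, SE 0.34, adjusted p = 1.22e-06). Without octanol pools 3 and 4 the difference was -6.54.

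C1qa, which encodes a chain of the complement starter C1q made mainly by tissue macrophages, differed least. Vehicle GFP- cells were at 9.34, 9.50, 8.94 and 9.20 and GFP+ cells at 7.48, 8.16, 8.03 and 8.34. The groups did not overlap, but the lowest GFP- array and the highest GFP+ array were close. C1qa was 2.36-fold lower in GFP+ cells (-1.24, SE 0.34, adjusted p = 0.0224). After octanol it was at 9.77, 9.48, 9.09 and 9.26 in GFP- cells and at 7.41, 7.44, 8.79 and 8.92 in GFP+ cells, so that pools 3 and 4 differed by -0.30 and -0.34 and pools 1 and 2 by -2.36 and -2.04. The fitted difference was -1.26 (SE 0.34, adjusted p = 0.0202), and -2.20 (adjusted p = 6.89e-04) without pools 3 and 4.

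The C1qa call depended on single pools. After vehicle it missed the threshold without vehicle pool 1 (-1.03, adjusted p = 0.0968) or without vehicle pool 2 (-1.21, adjusted p = 0.0638). After octanol it missed it without octanol pool 1 (-0.89, adjusted p = 0.0976) or octanol pool 2 (-1.0, adjusted p = 0.0873). With all values under background raised to it before the fit it missed it in both exposures (adjusted p = 0.0808 and 0.071). Over all alternatives run, its direction was the same in both comparisons. The other C1q chains gave like values: C1qb was lower by -1.60 (adjusted p = 0.0224) and C1qc by -0.99 (adjusted p = 0.0275) after vehicle, and by -1.60 and -0.90 after octanol.

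Csf1r encodes the receptor for CSF1 and IL-34, on whose signal most macrophages depend for survival. In vehicle pools it was at 10.38, 10.56, 10.09 and 10.38 in GFP- cells and at 6.87, 7.46, 7.87 and 8.11 in GFP+ cells, all above background. The GFP- arrays lay within a narrow band and the GFP+ arrays were more spread. Csf1r was 6.83-fold lower in GFP+ cells (-2.77, SE 0.44, adjusted p = 9.99e-04). After octanol it was at 11.07, 10.58, 10.23 and 10.54 in GFP- cells and at 6.28, 6.64, 8.36 and 8.38 in GFP+ cells, with pool 1 under background. It was at least 9.06-fold lower (-3.19, SE 0.44, adjusted p = 3.91e-04), and -4.36 without octanol pools 3 and 4. Of its 2 ligands, Csf1 differed by -0.27 after vehicle (adjusted p = 0.179) and was called lower after octanol (-0.48, adjusted p = 0.0287), though not once arrays were quantile normalized (-0.23, adjusted p = 0.232) or centred on their medians (-0.21, adjusted p = 0.2). Il34 differed by 0.28 (adjusted p = 0.144) and 0.23 (adjusted p = 0.23).

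Tyrobp and Fcer1g encode small membrane adaptors, DAP12 and the Fc receptor gamma chain, which carry ITAM signalling motifs for receptors of phagocytes, NK cells and mast cells. Tyrobp was at 10.44, 10.83, 11.07 and 11.77 in vehicle GFP- cells and at 6.29, 5.84, 5.79 and 6.89 in vehicle GFP+ cells, with pool 4 the 1 GFP+ array above background. The fall from GFP- to GFP+ cells was at least 23.7-fold (-4.82, SE 0.30, adjusted p = 1.53e-06). After octanol it was at 12.34, 11.55, 11.51 and 11.99 in GFP- cells and at 5.50, 6.13, 6.83 and 6.67 in GFP+ cells. The latter difference was -5.57 (SE 0.30, adjusted p = 6.18e-07), at least 39.9-fold, with 2 of 4 GFP+ arrays above background, and -6.13 without octanol pools 3 and 4.

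Fcer1g was at 13.08, 13.12, 13.93 and 14.45 in vehicle GFP- cells and at 7.06, 7.70, 8.07 and 8.26 in vehicle GFP+ cells. In both fractions it was lowest in pool 1 and highest in pool 4, and no GFP+ array fell under background. It was 58.6-fold lower in GFP+ cells (-5.87, SE 0.32, adjusted p = 7.3e-07). After octanol the GFP- arrays read 14.17, 13.18, 14.12 and 14.67 and the GFP+ arrays 6.71, 7.36, 9.06 and 9.35, a 60.3-fold difference (-5.92, SE 0.32, adjusted p = 7.14e-07). Without octanol pools 3 and 4 it was -6.64.

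**Figure D2:**
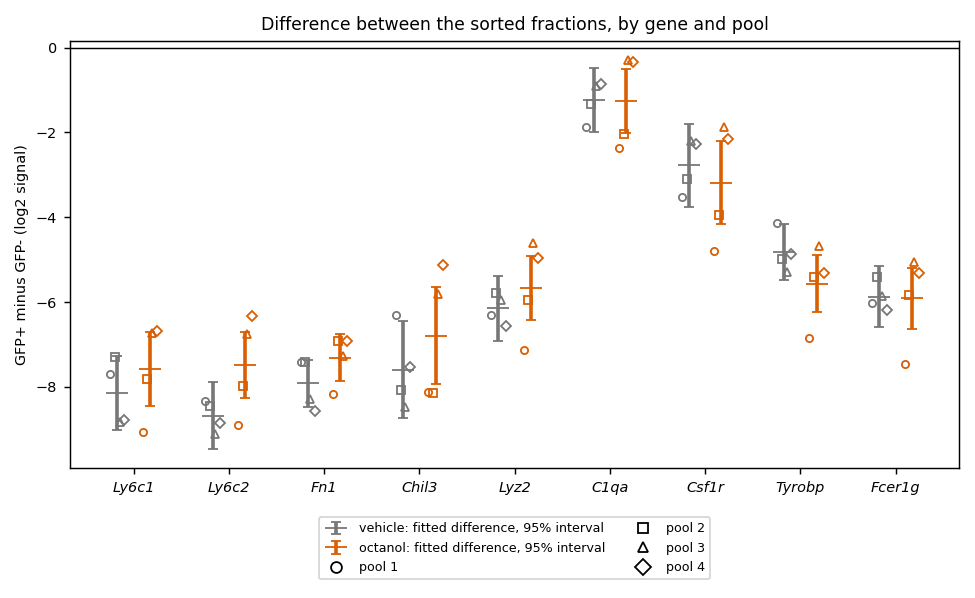
GFP+ minus GFP- log2 signal (vertical axis) for the 9 measured genes, grey after vehicle and orange after octanol. Open symbols are single pools, and the bars are the fitted difference with its 95% interval. All pools lie under 0 for all 9 genes, and C1qa comes nearest to it, at -0.30 and -0.34 in octanol pools 3 and 4.

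Most other monocyte and macrophage genes were lower in GFP+ cells too. Of 79 related genes listed by role, 71 were measured, and 54 of these had a mean above background. After vehicle 53 were called lower, 2 higher and 16 neither (median -1.79), and after octanol 53 lower, 1 higher and 17 neither (median -1.75). Of all genes, 14.7% were called higher after vehicle and 16.7% after octanol. Across the scalings the count called lower ran from 45 to 58 after vehicle and from 46 to 64 after octanol. The higher calls moved with the scaling as well. With arrays centred on their medians, 5 tissue macrophage, 2 complement, 2 CSF1 axis and 2 lysosomal list genes were called higher after vehicle. After octanol these counts were 3, 2, 2 and 2. With arrays centred on odorant receptors no related gene was called higher in either exposure.

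Of the classical monocyte genes, 11 of 11 measured were called lower after vehicle (median -3.19) and 10 of 11 after octanol (median -3.19). With quantile normalization these counts were 10 and 9, with median centring 9 and 9, and with receptor centring 11 and 11. Ccr2, the chemokine receptor that brings monocytes out of bone marrow, was at least 29.8-fold lower after vehicle (-6.60, SE 0.24, adjusted p = 8.07e-08) and lower by -5.64 after octanol, with 0 of 8 GFP+ arrays above background. Itgam, the CD11b integrin chain that neutrophils share, was at least 85.4-fold lower (-6.47, and -6.58 after octanol). Ms4a6c, a four-span membrane protein gene, was lower by -4.22 and -4.17, with 2 of 4 GFP+ arrays above background in each exposure. F13a1, a coagulation factor subunit, was lower by -3.67 and -3.76.

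Nonclassical monocyte genes were near background. Of 6 measured, 5 were called lower after vehicle (median -1.88) and 6 after octanol (median -1.75), but 1 of the 6 had means above background in both fractions. After vehicle Treml4, a receptor of patrolling monocytes, was at least 1.41-fold lower, and Cx3cr1, the fractalkine receptor, at least 1.65-fold (adjusted p = 0.00276), both under background on all 4 GFP+ arrays. Ace, angiotensin-converting enzyme, was called lower but had a mean under background in both fractions, so no size is given. The 1 gene with means above background in both fractions, Itgal, the LFA-1 integrin chain, differed by -1.79.

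Of 14 measured tissue macrophage genes, 7 had a mean above background, and 7 were under it on all vehicle GFP- arrays. Of the 14, 5 were called lower and 1 higher after vehicle (median -0.33), and 4 lower and 1 higher after octanol (median -0.25). With arrays centred on their median these medians became 0.01 and 0.02. Then 3 genes were called lower and 5 higher after vehicle, and 3 lower and 3 higher after octanol. Mpeg1, the pore-forming perforin-2 of phagocytes, was 21.8-fold lower after vehicle (-4.45, and -4.41 after octanol). Aif1, which encodes the actin-binding protein IBA1, differed less after vehicle (-1.43, adjusted p = 0.0139), with 1 of 4 GFP+ arrays above background. So did Adgre1, which encodes F4/80 (-1.33, adjusted p = 6.54e-05), with 3 of 4 above it. Trem2, a lipid-sensing receptor that signals through DAP12, differed by -0.91 (adjusted p = 0.0484), with 2 of 4 above it. The resident macrophage markers Cd163, Folr2, Lyve1 and Timd4, chosen after their values were seen, were under background on all 16 arrays, and Mrc1, the mannose receptor, was above it in all 4 groups and missed the threshold (-0.97, adjusted p = 0.0624).

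Complement genes other than C1qa gave 5 of 7 lower in each exposure (medians -1.16 and -1.29), though after vehicle 2 of 7 after quantile normalization. They were led by Cfp, which encodes properdin, a stabilizer of the alternative pathway convertase (-2.39, and -2.61 after octanol), and included the anaphylatoxin receptors C5ar1 (-1.50 and -2.14) and C3ar1 (-1.16 and -1.29).

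In the values as deposited, 2 related genes were called higher after vehicle, named after their values were seen. They were Gas6, a ligand of the engulfment receptor MERTK (0.48, adjusted p = 0.0162), and C1s1, a C1 protease, under background in all 4 groups (0.37, adjusted p = 0.0202). Gas6 was also called higher after octanol (0.57, adjusted p = 0.00656). With arrays centred on odorant receptors Gas6 was not called (0.18 after vehicle and 0.08 after octanol), and C1s1 was 0.06 after vehicle and was called lower after octanol (-0.42).

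Genes of Fc receptors and of ITAM signalling were lower in 14 of 15 cases after each exposure (medians -3.10 and -3.17). Fcgr3, an activating IgG receptor that signals through the Fcer1g chain, was 30.9-fold lower after vehicle (-4.95, and -5.17 after octanol). The inhibitory receptor gene Fcgr2b was lower by -4.16 and -3.75, the lipid phosphatase gene Inpp5d by -3.97 and -3.65, and the exchange factor gene Vav1 by -3.79 and -3.82. Of 4 vehicle GFP+ arrays, 3 were above background for Fcgr2b, 2 for Inpp5d and 3 for Vav1.

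Of the genes of the CSF1 axis and of myeloid transcription, 6 of 9 were lower after vehicle (median -1.11) and 7 of 9 after octanol (median -0.96). Spi1, which encodes PU.1, was 97.8-fold lower after vehicle (-6.61, SE 0.29, adjusted p = 1.79e-07) and lower by -6.16 after octanol. Csf2ra, the binding chain of the GM-CSF receptor, was at least 24.6-fold lower (-4.71, and -4.58 after octanol). The transcription factor gene Runx1 was lower by -3.82 and -3.53, with 1 of 4 vehicle and 2 of 4 octanol GFP+ arrays above background. Csf2rb, the shared beta chain, was lower by -1.16 and -1.35.

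Of the lysosomal and oxidase genes, 7 of 9 were lower in each exposure (medians -3.81 and -3.38). The phagocyte oxidase subunits Ncf1 (104-fold, -6.70), Cybb (67.8-fold, -6.08) and Ncf4 (32.8-fold, -5.04) were lower after vehicle, and lower by -6.40, -5.71 and -5.25 after octanol, as was Ctsc, the protease that activates granule proteases, by -3.81 and -3.46. The 2 genes not called, named after their values were seen, were the lysosomal genes Ctsb (0.17, adjusted p = 0.244) and Lamp1 (0.06, adjusted p = 0.605), whereas Lamp2, another lysosomal membrane gene, was called lower (-0.27, adjusted p = 0.0428), but differed by 0.06 (adjusted p = 0.527) with arrays centred on their medians.

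**Figure D3:**
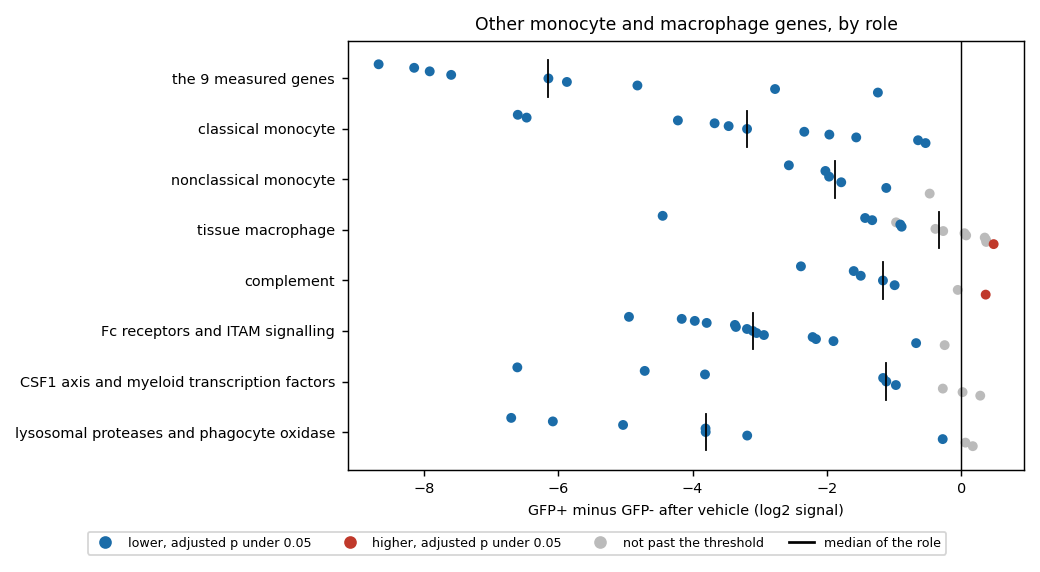
GFP+ minus GFP- log2 signal after vehicle (horizontal axis) for the 9 measured genes and 71 related genes, in rows by role, with 1 point per gene and a bar at the median of each row. Blue points were called lower, red points higher and grey points neither. The medians run from -6.15 for the 9 genes to -0.33 for tissue macrophage genes, of which 7 of 14 had a mean above background.

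Neutrophil genes, which share precursors and several of these genes with monocytes, were lower as well. All 11 markers were called lower in GFP+ cells in both exposures (medians -7.33 and -6.76), among them Ngp, a granule protein gene (-8.19 after vehicle), and Retnlg, a resistin-like gene of mature neutrophils (-8.35). Their summed log2 signal was 18.63 to 19.39 in vehicle GFP- pools and 18.95 to 19.65 in octanol GFP- pools. The share of the Ly6c, Fn1, Chil3, Lyz2, Tyrobp and Fcer1g signals that came from neutrophils was not tested.

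Markers of other cells were checked in the same way. After vehicle, 4 of 6 dendritic cell markers (median -1.03), 3 of 5 of mast cells and basophils (median -1.29), 3 of 3 of B cells (median -4.14), 5 of 5 of T and NK cells (median -2.31) and 2 of 2 erythroid markers (median -2.78) were called lower in GFP+ cells. After octanol the counts were 4, 3, 3, 4 and 2. Of 4 endothelial markers 1, Pecam1, was called lower in each exposure, and 2 were under background on all vehicle GFP- arrays and 3 on all octanol GFP- arrays. Of 6 olfactory neuron markers, 2 were called higher in each exposure. They were S100a5, as the sort requires, and Adcy3, named after its values were seen (0.30 after vehicle and 0.32 after octanol). The Adcy3 differences are small, and the array scale bears on such differences.

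The 9 genes were also compared by their profiles across the 16 arrays. Likeness was taken as the root mean square difference, in log2, between 2 genes after each gene's own mean was removed, a measure set mostly by the gap between the fractions. Ly6c1 and Ly6c2 were each other's nearest among the 9 (0.35), as were Lyz2 and Fcer1g (0.35) and, farther apart, C1qa and Csf1r (0.89). Fn1 was nearest to Ly6c1 (0.38), Chil3 to Ly6c2 (0.62) and Tyrobp to Lyz2 (0.62).

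Among all other genes, the profiles nearest to several of the 9 were mostly neutrophil genes. For Ly6c1 they were Mmp8 and Mmp9, a collagenase and a gelatinase (0.51 and 0.51), for Ly6c2 S100a8 and Mmp8 (0.35 and 0.37), for Chil3 Lcn2 and Ngp (0.29 and 0.40), and for Fn1 Hp, haptoglobin, and Mmp9 (0.39 and 0.45). Lyz2 was nearest to Cybb and S100a11 (0.24 and 0.30) and Tyrobp to Ncf4 and Lilrb4a (0.31 and 0.32), and Fcer1g to Igsf6 and Mpo, myeloperoxidase (0.41 and 0.43). C1qa was nearest to C1qc and Apoe (0.22 and 0.23), both abundant in macrophages, and Csf1r to Apobec1 and Ctss, a lysosomal protease (0.30 and 0.35). Apoe was far brighter than C1qa, at 15.88 in vehicle GFP- and 14.41 in vehicle GFP+ cells, and its cell source was not tested.

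The pools differed within a fraction as well. In vehicle GFP- cells pool 4 was highest for 7 of the 9 genes, while C1qa and Csf1r were highest in pool 2 and lowest in pool 3. In octanol GFP- cells pool 1 was highest for 5 genes and pool 4 for 4. The summed B cell signal was lowest in pool 4 of both exposures, at 10.22 after vehicle and 10.03 after octanol, against 13.32 and 12.38 in pool 1. In octanol GFP+ cells pool 4 was highest for 8 genes and pool 1 lowest for 7.

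**Figure D4:**
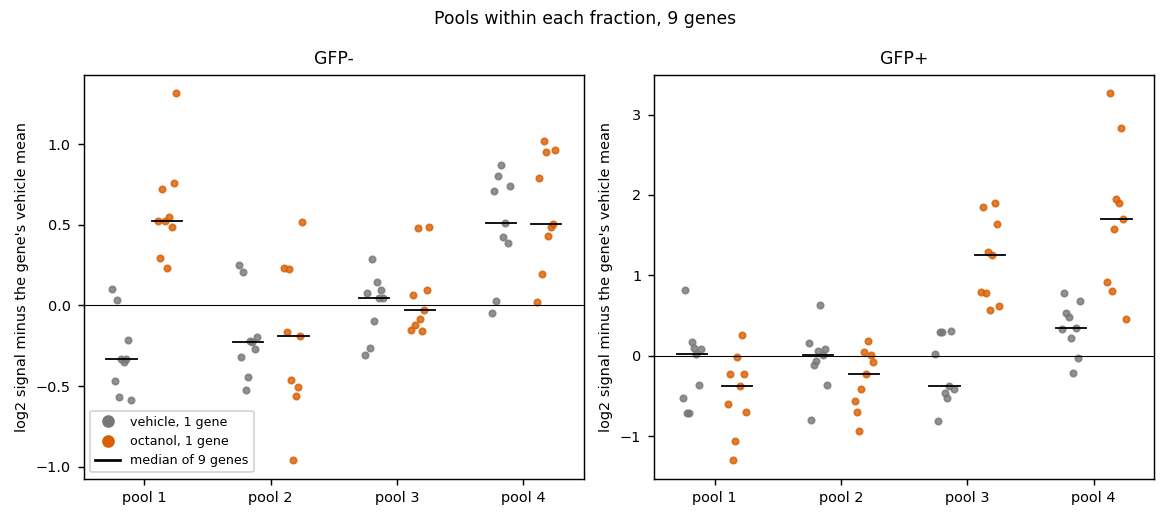
Log2 signal of each of the 9 genes in each pool minus that gene's mean over the 4 vehicle pools of the same fraction (vertical axes, with different ranges), for GFP- cells on the left and GFP+ cells on the right. Points are single genes, grey for vehicle and orange for octanol, and bars are medians of the 9 genes. In GFP+ cells all 9 genes are above their vehicle mean in octanol pools 3 and 4.

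The exposure itself gave no call. In GFP- cells, where most of the signal of these genes lay, octanol minus vehicle was positive for 9 of 9 genes (median 0.24, against -0.02 over all genes), 0 of 9 passed the adjusted threshold in limma, and 0% of all genes did. Tyrobp had the largest difference, 11.03 ± 0.56 after vehicle and 11.85 ± 0.40 after octanol (SD, n = 4), or 0.82 (95% interval 0.21 to 1.43, unadjusted p = 0.0133, adjusted p = 0.982), and its groups overlapped. It was the 1 gene of the 9 with an unadjusted p under 0.05, which 2.02% of all genes had as a rise and 2.56% as a fall. The values of the exposures overlapped for all 9 genes, while 1.06% of all genes were higher after octanol with no overlap. Fcer1g was 0.39 higher (interval -0.40 to 1.18), Lyz2 0.29 (-0.19 to 0.78), Csf1r 0.25 (-0.15 to 0.66) and Chil3 0.24 (-0.35 to 0.84). The smallest differences were those of C1qa (0.16, interval -0.23 to 0.54), Ly6c2 (0.11, -0.44 to 0.66), Ly6c1 (0.07, -0.50 to 0.63) and Fn1 (0.04, -0.82 to 0.89). The Ly6c1, Ly6c2 and Fn1 differences changed sign without vehicle pool 1, octanol pool 1 or octanol pool 4, and those of Ly6c1 and Fn1 also without vehicle pool 2, with lowest values of -0.096, -0.017 and -0.27. Neutrophil markers were positive in 11 of 11 (median 0.48), also with 0 called.

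In GFP+ cells octanol minus vehicle was positive for 8 of 9 genes (median 0.64, against 0.01 over all genes), again with 0 called among the 9 and 0% of all genes. Ly6c2 was at 6.50 ± 0.30 after vehicle and 7.80 ± 1.30 after octanol (SD, n = 4), a difference of 1.30 (95% interval 0.12 to 2.47, unadjusted p = 0.034, adjusted p = 1) and the 1 unadjusted p under 0.05 of the 9, against 2.26% of all genes in that direction and 1.47% in the other. Exposures overlapped for all 9 genes here too, and 1.25% of all genes were higher with no overlap. The other differences were 1.05 for Chil3 (interval -0.76 to 2.86), 0.78 for Lyz2 (-0.17 to 1.73), 0.64 for Ly6c1 (-0.45 to 1.73) and 0.64 for Fn1 (-0.23 to 1.50). Fcer1g differed by 0.35 (-0.88 to 1.58), C1qa by 0.14 (-0.68 to 0.95), Tyrobp by 0.08 (-0.64 to 0.79) and Csf1r by -0.16 (-1.26 to 0.94). Ly6c1, Fn1 and Tyrobp lay under background in most or all vehicle GFP+ arrays, so their differences are of values near that level.

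These positive differences rested on octanol pools 3 and 4. Without them Ly6c2 differed by 0.23 and Fn1 by 0.01, and the other 7 genes were lower after octanol, by -0.11 for Lyz2 to -1.12 for Csf1r, with adjusted p from 0.999 to 1 for all 9. The neutrophil, tissue macrophage and complement sums given above were each higher in the same 2 pools. The classical monocyte sum was 10.56 to 10.78 over the 4 octanol GFP+ pools, with 2 of its 11 genes under background on all 4 arrays. The cause of the rise in pools 3 and 4 was not tested.

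The effect of octanol on the GFP+ minus GFP- difference, which uses the arrays of both comparisons, was not called for any of the 9 genes (adjusted p = 0.998 for each), nor for any of the 19505. It was 1.19 for Ly6c2 (SE 0.50, unadjusted p = 0.038), and 0.81 for Chil3, 0.60 for Fn1, 0.57 for Ly6c1 and 0.49 for Lyz2, each smaller than 2 SE. Values for the others were -0.02 for C1qa, -0.04 for Fcer1g, -0.42 for Csf1r and -0.74 for Tyrobp (SE 0.42, unadjusted p = 0.109). Over all genes 505 (2.59%) had a positive and 381 (1.95%) a negative effect at an unadjusted p under 0.05. Without octanol pools 3 and 4 the Ly6c2 value was 0.24 and those of Ly6c1, Chil3 and Lyz2 turned negative.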

How the data were processed

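The deposited log2 signals per probe set come from Affymetrix Expression Console, run by the authors, per the submitters' processing notes. The sources used here do not give its version, summarization or normalization. Values were used as deposited: of 28846 probe sets, 19572 carry 1 gene symbol, and the one with the highest mean over 16 arrays was kept for each of 19505 genes.

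Fractions were compared with limma 3.58.1 in R 4.3.3 (lmFit and eBayes, moderated test, 2-sided) on 16 arrays with the pool of 3 mice as a block. Exposures were compared on the 8 arrays of a fraction. P-values were adjusted by the Benjamini-Hochberg method over all genes (threshold 0.05), and SE is the moderated standard error. The scripts were tested on simulated data.

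That both fractions of an exposure and number share mice is inferred from 24 mice making 8 pools. Residuals of the 2 fractions of a pool correlated at 0.0779 to 0.222 (6 of 8 over 0.1), and those of same-numbered arrays of the other exposure, from other mice, at 0.0582 to 0.332, so this check does not settle the pairing. Where pools are not known to be separate sorts, p-values measure only the spread between these arrays.

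The genes, the related list by role and the marker lists were chosen with earlier results of these data known. All 9 genes were named. Of the related list, up to 4 genes per role with the largest difference after vehicle among those called were named, of each marker list up to 2 of the brightest in GFP- cells (and S100a5, the reporter gene), and for each of the 9 genes the 2 nearest profiles, with exceptions stated. The number of arrays limits the precision.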

Additional observations from a re-analysis of the deposited data

How the results depend on the processing

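All 9 genes were called lower in GFP+ cells in both exposures under each alternative scaling, filter, probe set rule, variance moderation and block, except C1qa with values raised to background, and 8 to 9 were when single pools were left out. Without the replicate block, 9 of 9 were lower in both exposures, with 2456 genes higher and 2535 lower after vehicle and 2806 and 2474 after octanol, and the effect of octanol on the difference was called for 0 genes. With the replicate number as a block across exposures, 0 genes were called in either fraction. The block changed no call of the 9 genes. The count of all genes called moved more: higher in GFP+ cells after vehicle were 4561 with quantile normalization, 12759 with median centring and 630 with receptor centring, where 4387 were lower. After octanol 11401 were higher with median centring and 536 with receptor centring, where 8740 were lower. Leaving out single pools gave 1724 to 2882 higher after vehicle (fewest without vehicle pools 4 and 1) and 1799 to 3115 after octanol (fewest without octanol pools 1 and 4), and leaving out octanol pools 3 and 4, an alternative chosen after seeing the data, gave 1585. With trended, robust moderation 1 gene, none of the 9, was called for the effect of octanol on the difference. The cause of these moves was not tested.

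None of the exposure differences of the 9 genes was called under any alternative, and some changed sign. Without octanol pools 3 and 4 the GFP- values were -0.0064 for Ly6c1, -0.011 for Ly6c2 and -0.36 for Fn1. The GFP+ values were -0.30 for Ly6c1, -0.46 for Chil3, -0.11 for Lyz2, -0.58 for C1qa, -0.39 for Tyrobp and -0.74 for Fcer1g, and the effects on the difference were -0.30 for Ly6c1, -0.53 for Chil3 and -0.39 for Lyz2. Leaving out single pools gave ranges across 0 in GFP- cells for Ly6c1 (-0.096 to 0.27), Ly6c2 (-0.017 to 0.31) and Fn1 (-0.27 to 0.37). In GFP+ cells it did so for C1qa (-0.13 to 0.38), Csf1r (-0.48 to 0.22), Tyrobp (-0.10 to 0.34) and Fcer1g (-0.063 to 0.82), and for the effect on the difference for C1qa (-0.34 to 0.35), Csf1r (-0.86 to 0.12) and Fcer1g (-0.33 to 0.47). The cause was not tested. Signal under background on some GFP+ arrays limits Ly6c1, Fn1 and Tyrobp in both exposures, Ly6c2 after vehicle and Csf1r after octanol, so their folds are given as bounds from values raised to background, below the fitted folds.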
